A study of Mus musculus with 6 samples.

Results

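The genes described here are 32 genes of macrophages, antigen presentation and other leukocytes, found by symbol among the 22036 genes of a read count table from quadriceps femoris, a thigh muscle, of mice. The rule takes them by symbol, and all 32 were in the table. Total RNA was read as full-length nanopore cDNA, in which 1 read comes from 1 amplified cDNA molecule, in 3 wild-type (WT, Prr14-WT) and 3 knockout (KO, Prr14-KO) libraries. PRR14 holds heterochromatin at the nuclear lamina, and the study concerned its part in sensing mechanical force and in the choice of fibre type. The age and sex of the mice, the strain, the part of Prr14 removed and whether it was removed in all tissues or in muscle alone are details that the sources used here do not state. No label says whether the libraries came from separate animals, so p-values measure only the spread between these samples, which may be technical. Values are given below in the order of replicates 1, 2 and 3 of each genotype, an order that carries no meaning. Levels are CPM, meaning counts scaled to a common library size, with TMM factors applied.

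Skeletal muscle holds a small population of resident macrophages between its fibres, which clear debris and support repair after injury. These cells carry scavenger receptors, make the 3 chains of complement C1q, and signal through small adaptor proteins that pair with activating receptors. Antigen-presenting cells load peptides on MHC class II, whereas nearly every nucleated cell shows peptides on MHC class I. Neutrophils are short-lived cells made in the bone marrow that reach muscle from the blood, and S100a8 and S100a9 encode calcium-binding proteins that fill their cytoplasm. The whole muscle was read, so fewer cells of a type and less RNA per cell cannot be told apart.

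The listed genes held 1436099 to 1712975 counts per library. Prr14 itself had 9, 11 and 12 counts in WT and 4, 10 and 3 in KO. Scaled for library size, KO replicate 2 (6.25 CPM) was just below the lowest WT library (6.57 CPM), and the other 2 KO libraries were at 2.45 and 1.72 CPM. The difference did not pass (edgeR log2 fold change -1.10, adjusted p = 0.196), and "KO" below follows the labels. A list of 13 myofibre markers held 333647 to 449705 of the counts in WT libraries and 272612 to 332638 in KO libraries, so the labelled tissue had its defining markers. WT replicate 1 stood apart from the other 5 libraries in neutrophil and bone genes, with the values given beside the neutrophil genes below. It was not the only WT library to differ. By a scatter pooled over genes, WT replicate 3 was the WT library furthest from the others, with the values given beside the spread below. That measure was taken on library totals without TMM, and genes with many reads can weigh most in it. The tested members are therefore given with and without WT replicate 1. The plot of log2 fold changes also shows them without WT replicate 3.

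None of the members passed the test between the genotypes. Of the 32 members, 20 had enough reads to be tested and 12 did not. Of the 20, 0 were higher and 0 were lower in KO by the quasi-likelihood test of edgeR, at an adjusted p under 0.05 over the 6680 genes tested. Of all tested genes 6.26% were called, 2.98% as higher and 3.28% as lower. At an unadjusted p under 0.05 there was 1 member, Laptm5, against 20.0% of all tested genes. DESeq2 and limma-voom also called 0 members, with 4 and 1 at an unadjusted p under 0.05. The libraries of the genotypes overlapped for all 20, whereas they did not overlap for 25.8% of all tested genes. The median log2 fold change of the 20 was -0.56, with 17 negative and 3 positive, beside a median of 0.017 over all tested genes. Without WT replicate 1 that median was -0.0096, with 10 negative and 10 positive, and without WT replicate 3 it was -0.90. The count of members called as lower was 0 without WT replicate 1 (edgeR, 0 at an unadjusted p under 0.05), beside 2.43% of all genes tested in that fit. It was 4 of 23 without WT replicate 3 (Cd163, Cd52, H2-Aa and Lyz2), beside 2.50%, and of these Cd52 passed the filter only through its high WT libraries. With no filter on low counts it was 5 of 32 (Cd52, H2-Aa, C1qb, H2-Eb1 and H2-Ab1), beside 2.53%. With no filter and without WT replicate 1 it was 0 (3 at an unadjusted p under 0.05), beside 2.07%. At an unadjusted p under 0.05 there were 13 of the 23 without WT replicate 3, beside 17.4% of all genes tested in that fit. Adgre1 among the 13 passed the filter only through its high WT libraries, as Cd52 did. With no filter there were 12 of the 32, beside 13.6%. Without WT replicate 1 these shares of all genes were 16.9% with the filter and 12.3% with no filter.

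The spread between WT libraries was the main feature of these genes. WT replicate 1 was the highest WT library for 20 of the 20 tested members, and WT replicate 3 was the lowest for 19, beside 33.0% and 35.4% of all tested genes. For 19 of the 20, WT replicate 2 lay between them, beside 18.4% of all tested genes. The members thus moved together, so the counts of members given here are not counts of independent genes. The highest WT library exceeded the lowest by a median of 2.81-fold over the 20 members, with a range from 1.18-fold to 6.24-fold, and by a median of 1.37-fold over all tested genes. In KO the same median was 1.67-fold for the members and 1.4-fold for all tested genes. The scatter can also be set against counting noise, for which the chi-square per degree of freedom between libraries of a genotype is about 1. Its median over the 20 members was 11.3 in WT and 2.39 in KO, and over all tested genes it was 1.11 and 1.44. The scatter was larger in WT than in KO for 18 of the 20, beside 43.3% of all tested genes. Between pairs of libraries, the chi-square per degree of freedom was instead pooled over all genes compared, on library totals without TMM. Genes with many reads can dominate a pooled value, so it is not comparable with the medians per gene above. It was 2.19 for WT replicates 1 and 2. It was 5.20 for WT replicates 1 and 3 and 4.23 for WT replicates 2 and 3. The KO pairs were at 3.86 to 5.35, so by this measure WT replicates 1 and 2 were the closest pair.

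**Figure D1:**
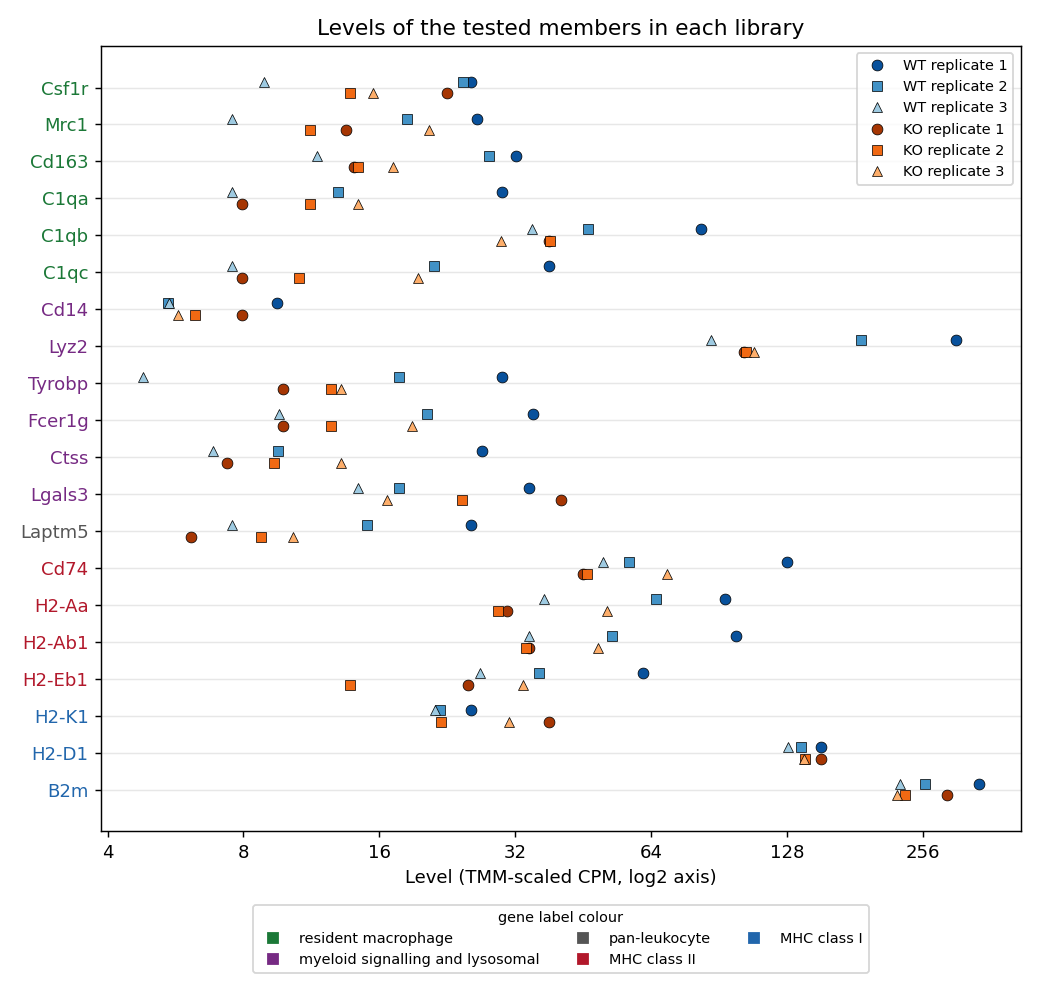
Level of each of the 20 tested members (rows, grouped by role through the label colour) in each library, as TMM-scaled CPM on a log2 axis. Blue marks are the 3 WT libraries and orange marks the 3 KO libraries. WT replicate 1 lies furthest right among the WT marks in all 20 rows, and the KO marks fall within or beside the WT range.

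Resident macrophage genes were low to moderate in level, and those that could be tested overlapped between the genotypes. Of the 9 members, 6 were tested and 0 passed, all 6 with a negative log2 fold change, from -0.78 to -0.18. The 9 genes summed to 260, 168 and 84.9 CPM in WT, compared with 121, 107 and 124 CPM in KO. The KO sums varied by 7.78% around their mean (coefficient of variation) and the WT sums by 51.1%.

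C1qb encodes the B chain of complement C1q, the protein that starts the classical pathway. It had 82.4, 46.3 and 34.9 CPM in WT, compared with 37.9, 38.1 and 29.8 CPM in KO. The KO libraries lay close together, and 2 of them lay above the lowest WT library. Its log2 fold change was -0.63 with an SE of 0.28 (edgeR adjusted p = 0.251), and -0.23 without WT replicate 1 (adjusted p = 0.664). With no filter C1qb passed as lower (edgeR adjusted p = 0.0394). C1qc, the C chain gene, had 37.9, 21.1 and 7.53 CPM in WT, compared with 7.95, 10.6 and 19.5 CPM in KO. Its lowest library was thus a WT library and so was its second highest. The log2 fold change was -0.78 with an SE of 0.59 (edgeR adjusted p = 0.545), and -0.19 without WT replicate 1. C1qa, the A chain gene, had 29.9, 12.9 and 7.53 CPM in WT, compared with 7.95, 11.2 and 14.3 CPM in KO. The edgeR log2 fold change was -0.57 (SE 0.46, adjusted p = 0.560), and without WT replicate 1 it was 0.10. The 3 genes lie beside each other on the minus strand of GRCm38 chromosome 4, from 136880129 (C1qb) to 136898803 (C1qa), and their longest reading frames are 63.3% to 65.1% identical.

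The scavenger receptor genes showed the same order of WT libraries. Cd163, the receptor for haemoglobin bound to haptoglobin, had 32.1, 27.9 and 11.6 CPM in WT, compared with 14.1, 14.4 and 17.2 CPM in KO. WT replicates 1 and 2 were above all KO libraries and WT replicate 3 was below them, and the log2 fold change was -0.64 with an SE of 0.32 (edgeR adjusted p = 0.295). Without WT replicate 3 Cd163 passed as lower in KO (edgeR log2 fold change -0.98, adjusted p = 0.0392), and without WT replicate 1 it was at -0.40 (adjusted p = 0.613). Mrc1, the mannose receptor gene, had 26.3, 18.4 and 7.53 CPM in WT, compared with 13.5, 11.2 and 20.6 CPM in KO (edgeR log2 fold change -0.19, adjusted p = 0.855). Csf1r, the receptor for the growth factor that macrophages need to survive, had 25.5, 24.5 and 8.90 CPM in WT, compared with 22.6, 13.7 and 15.5 CPM in KO (edgeR log2 fold change -0.18, adjusted p = 0.836). For Mrc1 and Csf1r the lowest library of all 6 was WT replicate 3, and without WT replicate 1 both log2 fold changes were positive (0.20 and 0.02).

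The remaining macrophage members were too low to be tested. Adgre1, which encodes the surface marker F4/80, had 12, 13 and 3 counts in WT, compared with 5, 6 and 4 counts in KO. Cd68, a protein of macrophage endosomes and lysosomes, had 20, 8 and 4 counts in WT, compared with 20, 6 and 6 counts in KO, so the totals were the same in the genotypes, at 32 each. Aif1, which encodes the calcium-binding protein IBA1, had 3, 4 and 3 counts in WT, compared with 3, 0 and 2 counts in KO. Scaled for library size, all 3 WT libraries were above the KO libraries, at 2.05 to 2.73 CPM against 0 to 1.84 CPM. A total of 3 reads equals 1.72 to 2.19 CPM, depending on the library, so differences in Aif1 were not detectable at this depth.

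The summed level of myeloid adaptor, lysozyme and lysosomal genes had the widest spread in WT and the narrowest in KO among the groups with tested members. Of the 7 members, 6 were tested and 0 passed, 5 with a negative log2 fold change. The 7 genes summed to 438, 258 and 129 CPM in WT, compared with 178, 169 and 178 CPM in KO, with coefficients of variation of 56.6% and 3.04%. Lyz2 held 302 of the 438 CPM, and single genes spread more in KO than the sum. Lgals3 had 40.4 CPM in KO replicate 1 and 16.6 in KO replicate 3, whereas Fcer1g had 9.79 and 18.9. By the median chi-square per degree of freedom in WT, class II was wider than this group (21.3 against 11.3).

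Lyz2 encodes the lysozyme of macrophages and neutrophils. It had 302, 187 and 86.9 CPM in WT, compared with 103, 104 and 108 CPM in KO. The 3 KO libraries differed by less than counting noise (chi-square per degree of freedom 0.14), while the WT libraries lay on both sides of them (86.3). The log2 fold change was -0.87 with an SE of 0.46 (edgeR adjusted p = 0.393). Without WT replicate 3 Lyz2 passed as lower in KO (edgeR log2 fold change -1.22, adjusted p = 0.0011), and without WT replicate 1 it was -0.41 (adjusted p = 0.481). The paralog Lyz1 has a reading frame 95.1% identical to that of Lyz2 and had 5 to 16 counts a library, so a part of the reads could have been split between them.

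Tyrobp and Fcer1g encode the signalling adaptors DAP12 and the Fc receptor gamma chain. Tyrobp had 29.9, 17.7 and 4.79 CPM in WT, compared with 9.79, 12.5 and 13.2 CPM in KO, so the KO libraries lay inside the WT range (edgeR log2 fold change -0.55 with an SE of 0.51, adjusted p = 0.627). Fcer1g had 35.0, 20.4 and 9.58 CPM in WT, compared with 9.79, 12.5 and 18.9 CPM in KO, also inside the WT range (edgeR log2 fold change -0.64 with an SE of 0.43, adjusted p = 0.472). Ctss, the lysosomal protease that trims the class II invariant chain, had 27, 9.54 and 6.85 CPM in WT, compared with 7.34, 9.37 and 13.2 CPM in KO (edgeR log2 fold change -0.51, adjusted p = 0.625). Leaving out WT replicate 1, the log2 fold changes of Tyrobp and Ctss were positive, at 0.05 and 0.26, and that of Fcer1g was -0.15.

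Lgals3 and Cd14 had fold changes of the opposite sign or near 0. Lgals3, which encodes the sugar-binding protein galectin-3 and is not limited to macrophages, had 34.3, 17.7 and 14.4 CPM in WT, compared with 40.4, 24.4 and 16.6 CPM in KO. Its highest library of the 6 was KO replicate 1, and its log2 fold change was 0.30 with an SE of 0.39 (edgeR adjusted p = 0.744). Without WT replicate 1 it was 0.72 (edgeR adjusted p = 0.339), and without KO replicate 1 it was -0.11. Cd14, the co-receptor for bacterial lipopolysaccharide, had 8 to 13 counts in every library and a log2 fold change of -0.03 (SE 0.37, edgeR adjusted p = 0.983), or 0.25 without WT replicate 1. Itgam, the integrin chain of myeloid cells, had 2 counts in WT and 3 counts in KO in all, all 3 of them in KO replicate 3.

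**Figure D2:**
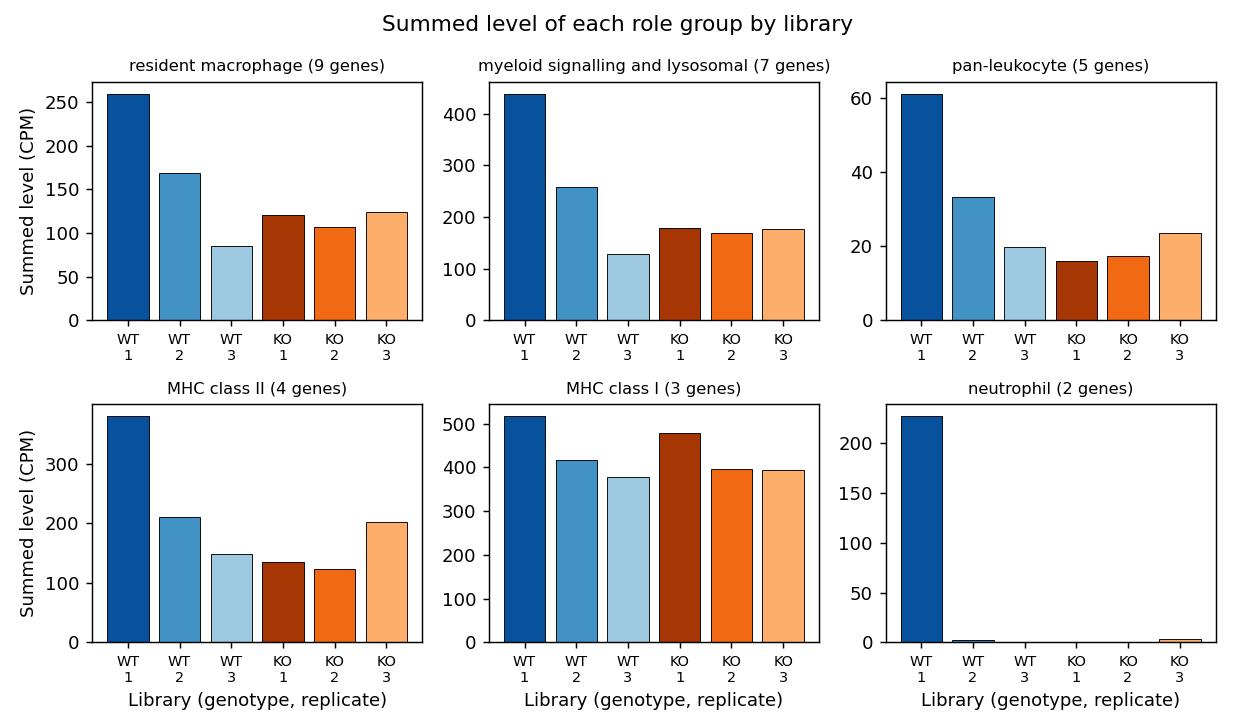
Summed level of the members of each role group (CPM, from 0) in each library, 1 bar per library with WT in blue and KO in orange. The macrophage, myeloid, leukocyte and class II sums are highest in WT replicate 1 and, within WT, lowest in WT replicate 3, while the KO bars lie between 123 and 202 CPM for class II and between 169 and 178 CPM for the myeloid genes, and the neutrophil panel holds 1 tall bar, at 228 CPM in WT replicate 1.

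Genes expressed across leukocytes were low, and 1 of the 5 was tested. Laptm5, a lysosomal membrane protein of blood cells, had 25.5, 15 and 7.53 CPM in WT, compared with 6.12, 8.74 and 10.3 CPM in KO. WT replicates 1 and 2 were above all KO libraries and WT replicate 3 was inside the KO range. Its log2 fold change was -0.91 with an SE of 0.41 (unadjusted p = 0.0426, edgeR adjusted p = 0.233), and -0.44 without WT replicate 1 (adjusted p = 0.637). Cd52, a small glycoprotein anchored on lymphocytes and myeloid cells, had 23, 12 and 4 counts in WT, compared with 4, 3 and 5 counts in KO. WT replicate 3 was thus level with the KO libraries. Without WT replicate 3 Cd52 passed the filter only through the other 2 WT libraries, which are its high ones, so its lower call in that fit (edgeR adjusted p = 0.0133) was built in. With no filter it passed as lower (edgeR log2 fold change -1.89, adjusted p = 0.00434), and that call was lost when WT replicate 1 was also left out (-1.19, adjusted p = 0.418). Ptprc, which encodes the pan-leukocyte phosphatase CD45, had 8, 9 and 5 counts in WT, compared with 2, 2 and 7 counts in KO. Coro1a, an actin regulator of leukocytes, had 11, 1 and 5 counts in WT, compared with 6, 3 and 4 counts in KO. Cd53, a tetraspanin, had 16 counts in WT and 17 in KO.

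All 4 class II genes were tested and 0 passed, with log2 fold changes from -0.81 to -0.54. The 4 summed to 381, 211 and 148 CPM in WT, compared with 135, 123 and 202 CPM in KO. KO replicate 3 was the highest KO library for each of the 4. The 3 chain genes lie within GRCm38 chromosome 17 from 34257689 (the start of H2-Ab1) to 34316674 (the end of H2-Eb1), with H2-Aa between them, and Cd74 lies elsewhere. Without WT replicate 1 the WT mean of the sums was 180 CPM, beside 153 ± 42.6 CPM (SD, n = 3) in KO.

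H2-Aa and H2-Ab1 encode the alpha and beta chains of the class II molecule I-A. H2-Aa had 93.4, 65.4 and 37.0 CPM in WT, compared with 30.6, 29.4 and 51.0 CPM in KO. Only KO replicate 3 reached into the WT range. The log2 fold change was -0.81 with an SE of 0.35 (edgeR adjusted p = 0.257). H2-Aa was lower without WT replicate 3 (edgeR log2 fold change -1.10, adjusted p = 0.0249) and not called without WT replicate 1 (-0.49, adjusted p = 0.456). H2-Ab1 had 98.5, 52.5 and 34.2 CPM in WT, compared with 34.3, 33.7 and 48.7 CPM in KO (edgeR log2 fold change -0.66 with an SE of 0.38, adjusted p = 0.406). H2-Eb1, the beta chain of I-E, had 61.3, 36.1 and 26.7 CPM in WT, compared with 25.1, 13.7 and 33.2 CPM in KO (edgeR log2 fold change -0.77 with an SE of 0.36, adjusted p = 0.282). Cd74, the invariant chain that fills the class II groove until it is trimmed, had 128, 57.3 and 50.0 CPM in WT, compared with 45.3, 46.2 and 69.3 CPM in KO (edgeR log2 fold change -0.54 with an SE of 0.40, adjusted p = 0.535). For each of H2-Ab1, H2-Eb1 and Cd74, KO replicate 3 exceeded WT replicate 3. Without WT replicate 1 their log2 fold changes were -0.18, -0.41 and -0.024. With no filter H2-Aa, H2-Eb1 and H2-Ab1 passed as lower (edgeR adjusted p = 0.00182, 0.0172 and 0.0263).

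The summed level of the class I genes had the smallest spread between WT libraries of the groups with tested members. The 3 summed to 518, 418 and 377 CPM in WT, compared with 479, 395 and 395 CPM in KO, with coefficients of variation of 16.6% and 11.5%. All 3 were tested, 0 passed, and B2m alone among them had a negative log2 fold change. H2-D1, a classical class I heavy chain, had 152, 138 and 129 CPM in WT, compared with 152, 141 and 140 CPM in KO. Its log2 fold change of 0.05 (SE 0.13, edgeR adjusted p = 0.891) rested on 1317 counts. H2-K1, the other classical heavy chain here, had 25.5, 21.8 and 21.2 CPM in WT, compared with 37.9, 21.9 and 30.9 CPM in KO. All 3 KO libraries were at or above the second WT library, and the log2 fold change was 0.41 with an SE of 0.24 (edgeR adjusted p = 0.383). B2m, the light chain shared by class I molecules, had 340, 258 and 227 CPM in WT, compared with 289, 233 and 224 CPM in KO (edgeR log2 fold change -0.15 with an SE of 0.15, adjusted p = 0.667). The chi-square per degree of freedom of B2m in WT was 17.4, above the median of 11.3 over the 20 tested members. That of H2-D1 was 1.46 and that of H2-K1 was 0.34, so by this measure the small spread was that of the heavy chains. The log2 fold changes without WT replicate 1 were 0.086 for H2-D1, 0.46 for H2-K1 and 0.0051 for B2m. Reads of B2m could also include those of Patl2, which overlaps it on the opposite strand, since the use of strand is not given. The same limit holds for Csf1r (overlapped by Hmgxb3), Cd52 (Crybg2) and Coro1a (Bola2). Itgam is overlapped by Gm49368 on the same strand. The reading frames of H2-K1 and H2-D1 are 92.0% identical, so reads could have been assigned to the wrong one of the pair.

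Promoter windows of 2 class II chains and 2 class I heavy chains are shown, since these chains had the contrast in spread given above. The windows are from RefSeq (GRCm38.p6), run from 250 bases before to 50 after the annotated start, and are written 5′ to 3′ on the strand of the gene. Of the 32 members 24 had a window in the table, H2-Ab1 not among them, and H2-K1 has 2 annotated starts, of which the first listed is shown. Capitals mark matches on either strand to ATTGG (the CCAAT box bound by NF-Y, the Y box of MHC genes), TGACG (the core of a cyclic AMP response element), AANNGAAA (a part of the interferon-stimulated response element) and GGGATTC (a part of an NF-kappaB site). Where matches overlap they form 1 run of capitals.
H2-Aa, chr17:34287774-34288073, minus strand: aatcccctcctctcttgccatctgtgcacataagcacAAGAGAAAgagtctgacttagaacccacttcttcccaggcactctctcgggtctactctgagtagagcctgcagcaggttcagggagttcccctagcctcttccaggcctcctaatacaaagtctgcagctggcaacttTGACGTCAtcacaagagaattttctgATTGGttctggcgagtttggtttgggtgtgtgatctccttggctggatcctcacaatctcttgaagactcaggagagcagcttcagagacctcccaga
H2-Eb1, chr17:34305617-34305916, plus strand: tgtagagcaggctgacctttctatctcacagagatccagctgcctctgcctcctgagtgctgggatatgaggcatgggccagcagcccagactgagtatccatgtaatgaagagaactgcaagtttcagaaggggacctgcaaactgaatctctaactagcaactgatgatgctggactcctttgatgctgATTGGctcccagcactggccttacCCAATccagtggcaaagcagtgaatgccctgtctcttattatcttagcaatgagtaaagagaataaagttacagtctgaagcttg
H2-K1, chr17:34000298-34000597, minus strand: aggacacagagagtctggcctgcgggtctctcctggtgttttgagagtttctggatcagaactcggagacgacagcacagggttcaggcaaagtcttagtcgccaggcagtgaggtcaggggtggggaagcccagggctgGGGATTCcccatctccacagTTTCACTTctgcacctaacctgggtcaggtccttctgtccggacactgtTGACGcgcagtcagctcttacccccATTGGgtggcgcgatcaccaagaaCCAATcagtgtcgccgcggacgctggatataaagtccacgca
H2-D1, chr17:35262844-35263143, plus strand: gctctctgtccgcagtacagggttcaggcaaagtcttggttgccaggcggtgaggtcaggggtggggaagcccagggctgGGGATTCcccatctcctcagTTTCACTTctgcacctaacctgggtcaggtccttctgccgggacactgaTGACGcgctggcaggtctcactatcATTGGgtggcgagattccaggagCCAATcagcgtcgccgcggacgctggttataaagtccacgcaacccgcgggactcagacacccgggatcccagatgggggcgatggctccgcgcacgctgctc

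ATTGG was found in all 4 windows, in 1 place in H2-Aa and in 2 places in each of the other windows, and it is present in 37.4% of 32851 RefSeq promoter windows of 300 bases. GGGATTC was found in both class I windows, at -110 from the listed start of H2-K1 and at -170 in H2-D1, in neither of the class II windows, and in 3.08% of all windows. AANNGAAA was found in 1 place each in H2-Aa, H2-K1 and H2-D1 and in 23.9% of all windows. TGACG was found in these same 3 windows, with 2 overlapping matches on opposite strands in H2-Aa, and in 20.8% of all windows. In H2-Eb1 neither AANNGAAA nor TGACG was found. A match describes the letters of the window and nothing more.

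Lymphocyte genes were hardly read. Cd3e, a chain of the T cell receptor complex, had 1 count in all, in KO replicate 3. Cd79a, the signalling chain of the B cell receptor, had 1 count each in WT replicates 1 and 2 and 0 elsewhere. Of the 11 further T and NK cell markers in the table, 0 could be tested, and Cd3d, Cd8a, Gzma, Gzmb, Klrb1c and Ncr1 were at 0 in every library. A count of 0 allows a level of up to 1.72 to 2.19 CPM, depending on the library, with counting error only considered.

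The neutrophil genes were found almost entirely in 1 WT library. Both lie on GRCm38 chromosome 3, S100a8 from 90668978 to 90670035 on the plus strand and S100a9 from 90692632 to 90695721 on the minus strand. S100a8 had 229, 3 and 0 counts in WT, compared with 0, 0 and 4 counts in KO. S100a9 had 83, 1 and 1 counts in WT, compared with 0, 0 and 2 counts in KO. Neither gene passed the filter, which requires enough counts in 3 libraries, and in the fit with no filter neither was called (edgeR adjusted p = 0.587 and 0.603). Without WT replicate 1 the totals were 3 counts in WT and 4 in KO for S100a8, and 2 and 2 for S100a9, where no difference was detectable.

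Other genes of the neutrophil lineage were high in the same library. Of 14 further neutrophil markers, 10 had their highest count in WT replicate 1. Camp (cathelicidin) had 85 counts there and 1 count in the other 5 libraries together, and Ngp (neutrophilic granule protein) had 56 and 1. Ltf (lactoferrin) had 27 counts there, and the primary granule genes Mpo and Elane had 10 and 9. Ly6g, the surface marker by which mouse neutrophils are sorted, had 9 counts there and 0 in the others. The list summed to 233 CPM in WT replicate 1 and to 41.8 to 164 CPM in the others, most of the latter from G0s2, which is also a gene of adipose tissue. Its highest library was KO replicate 2, with 252 counts.

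Genes of bone and joint were also present in WT replicate 1, a list chosen after these values were seen. The 14 genes summed to 541 CPM there and to 13 to 34.4 CPM in the other 5 libraries, and 9 of the 14 had their highest count in it. The osteocalcin gene Bglap2 had 206 counts in WT replicate 1 and 3 in KO replicate 1, and the bone sialoprotein gene Ibsp had 114 and 1, with 0 elsewhere. Mmp13, a collagenase of bone and cartilage, had 25 counts there and 0 in the others. Mepe and Sp7 were at 0 in all libraries. The part of bone, marrow or joint RNA in the higher macrophage, class II and leukocyte levels of WT replicate 1 was not tested.

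**Figure D3:**
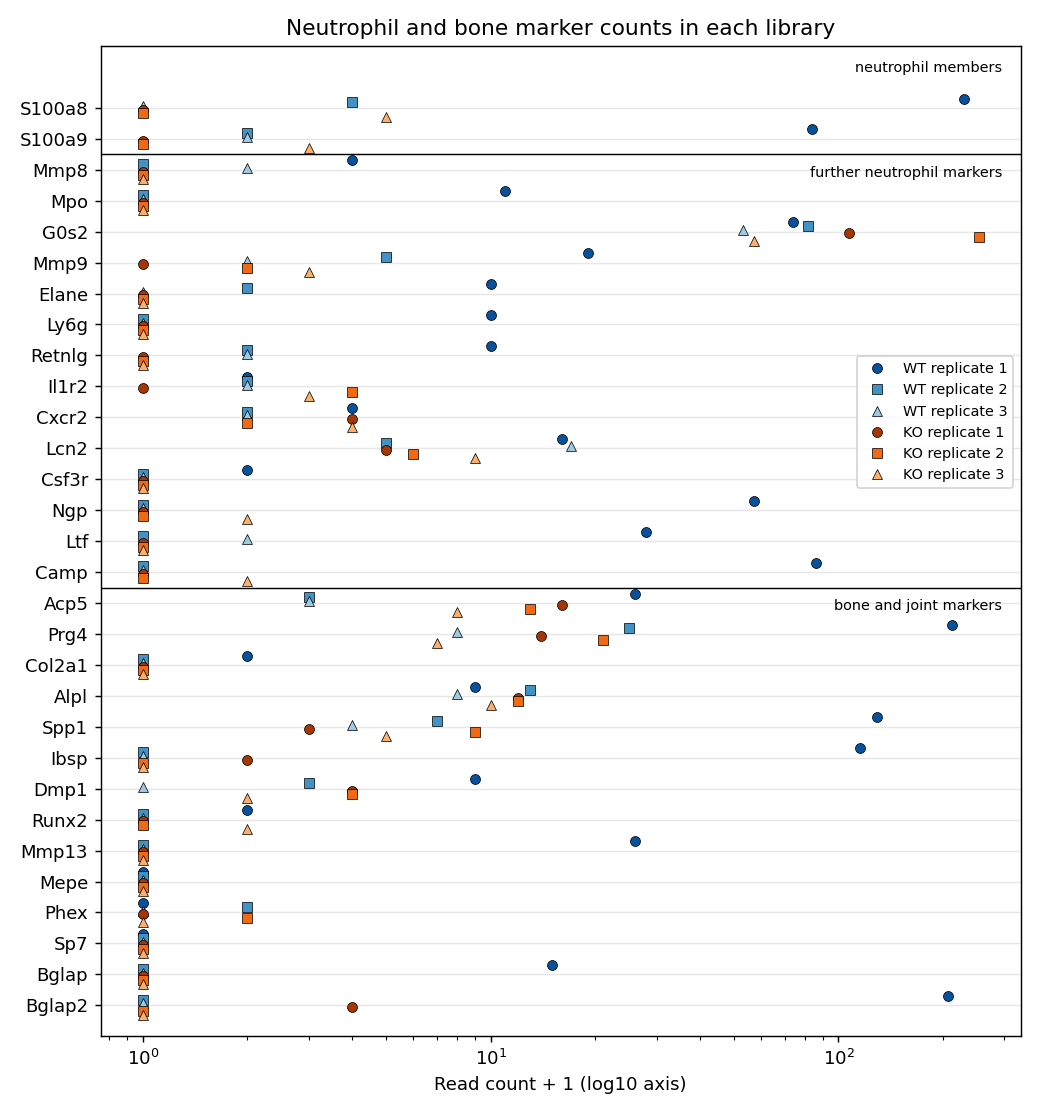
Read count plus 1 (log10 axis) of the neutrophil members, 14 further neutrophil markers and 14 bone and joint markers in each library, with WT in blue and KO in orange. The dark blue circles of WT replicate 1 stand alone to the right for S100a8 (229 counts), S100a9 (83), Camp (85), Ngp (56), Bglap2 (206) and Ibsp (114), but not for G0s2.

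Markers of blood and of other cell types also differed between the WT libraries. The 8 red blood cell genes summed to 4132, 3013 and 1764 CPM in WT, compared with 1511, 2119 and 2148 CPM in KO. Fibroblast markers summed to 5951, 4624 and 3912 CPM in WT, compared with 4770, 3822 and 4009 CPM in KO. Myofibre markers ran the other way within WT, at 243427 CPM in WT replicate 1 and 307863 CPM in WT replicate 3. Smooth muscle and pericyte markers were level in WT, at 757 to 811 CPM. Of the 12 fibroblast, 12 endothelial, 6 red blood cell and 7 smooth muscle and pericyte genes tested, 0 passed by edgeR. Of all tested genes 6.26% were called. At an unadjusted p under 0.05 there were 1, 0, 0 and 2, beside 20.0% of all tested genes. DESeq2 and limma-voom also called 0 in these 4 lists. Without WT replicate 3, 1 of the 12 fibroblast genes (Dcn, decorin) passed as lower. So did 2 of the 6 red blood cell genes (the beta globins Hbb-bs and Hbb-bt), beside 2.50% of all genes tested in that fit. Without WT replicate 1 the count in these 4 lists was 0. Without WT replicate 1, 7 of the 13 myofibre markers fell in KO, beside 2.43% of all genes tested in that fit. With all 6 libraries all 13 were tested, 7 fell in KO and 0 rose, beside 3.28% and 2.98% of all tested genes. Those with the smallest p were the fast myosin gene Myh4 (edgeR log2 fold change -1.36), Neb (nebulin, -0.91), Mylpf (fast regulatory light chain, -0.76) and Tnnc2 (fast troponin C, -0.67). Of 6 adipocyte genes tested, Car3 fell (edgeR log2 fold change -1.57, adjusted p = 0.0204), and 0 were called as higher. Car3 had the lowest log2 fold change of the 6, of which 4 were positive and 2 negative, with a median of 0.17. WT replicate 1 was the highest and WT replicate 3 the lowest WT library for 5 of the 6 adipocyte genes. Their median chi-square per degree of freedom was 22.1 in WT and 5.45 in KO. The sum of the 7 listed adipocyte genes did not follow that order, at 4525, 3586 and 6619 CPM in WT. The part of these cells in the members' spread was not tested.

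**Figure D4:**
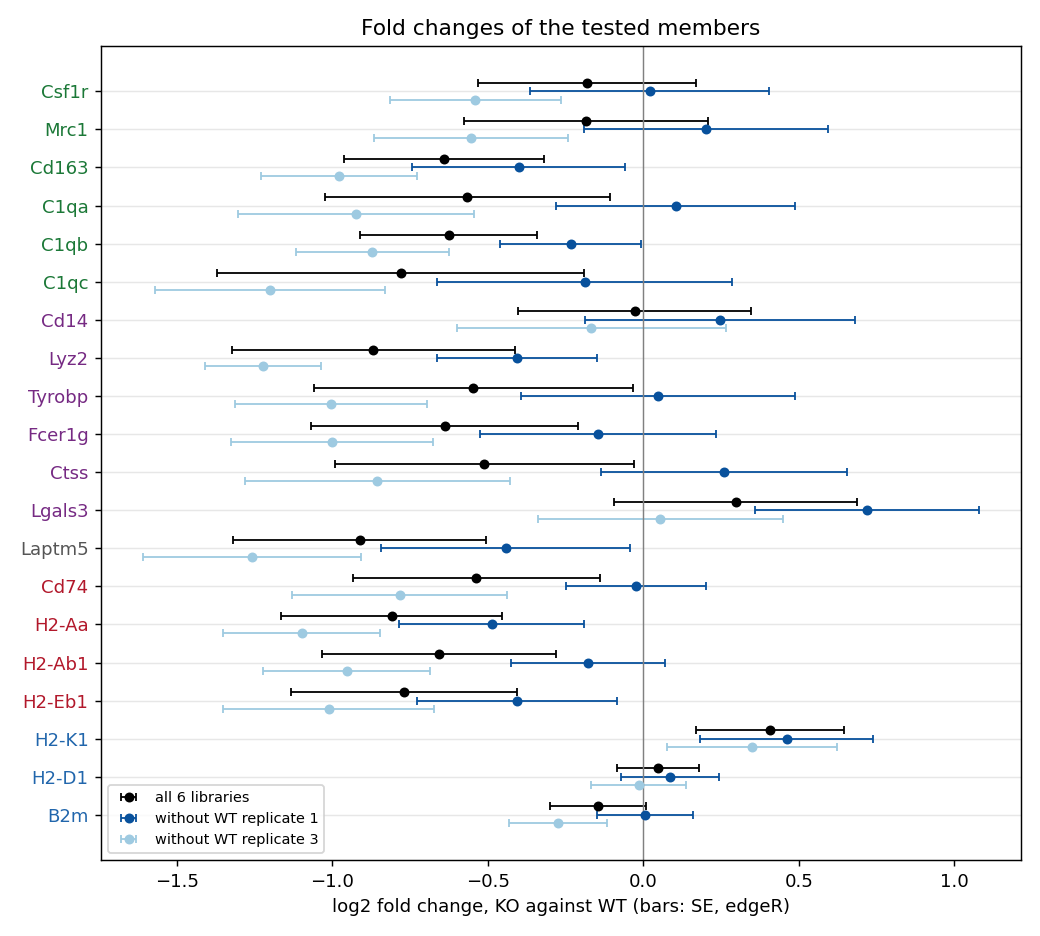
log2 fold change of KO against WT for the 20 tested members (rows), with bars of 1 SE from edgeR, for all 6 libraries (black), without WT replicate 1 (dark blue) and without WT replicate 3 (light blue). For the members other than class I the dark blue points lie nearer to 0 or above it, with Lgals3 at 0.72, and the light blue points lie lower, with Lyz2 at -1.22 and C1qc at -1.20, while H2-D1 stays between -0.01 and 0.09.

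Further macrophage genes did not pass either. Of 41 such markers, 16 were tested and 0 passed (edgeR, 2 at an unadjusted p under 0.05, beside 20.0% of all tested genes). The log2 fold change was negative for 13 of the 16, and the median was -0.35. Pf4, a chemokine of platelets and of resident macrophages, had 166, 89 and 37 counts in WT, compared with 69, 59 and 86 counts in KO. Pf4 was singled out after its values were seen. It passed as lower only without WT replicate 3 among the alternatives (edgeR adjusted p = 0.0408). Chemokines, cytokines and their receptors were mostly too low, with 9 of 37 tested and 0 called (0 at an unadjusted p under 0.05). Of 30 interferon response genes 17 were tested and 0 passed (1 at an unadjusted p under 0.05), and their median was -0.04. DESeq2 and limma-voom called 0 in these 3 lists. Without WT replicate 3, 1 gene in each of the 3 lists passed as lower (Pf4, Ccl6 and Ifi27l2a), while without WT replicate 1 the count was 0. Of all genes tested in those fits, 2.50% and 2.43% were called as lower.

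No gene of antigen loading passed in either class by edgeR with all 6 libraries, the filter and TMM scaling. Of 21 genes of class I loading and nonclassical class I molecules, 12 were tested and 0 passed. At an unadjusted p under 0.05 there were 3 of the 12, beside 20.0% of all tested genes. The log2 fold change was positive for 10 of the 12, with a median of 0.24. Canx, which encodes the chaperone calnexin, was the nearest to the threshold, from 55.5 ± 14.3 to 86.2 ± 10.7 CPM (edgeR log2 fold change 0.63, adjusted p = 0.0696). Its libraries did not overlap between the genotypes, as was so for 25.8% of all tested genes. It was singled out after its values were seen, and it was called as higher in 3 of 16 fits, with library totals (edgeR adjusted p = 0.0215), with no filter (0.0136) and with no filter and without WT replicate 1 (0.0244). Leaving out WT replicate 1 alone, its adjusted p was 0.106. In the same list, the libraries of Psme1, Tapbp and Tap2 (higher in KO) and of Psmb8 (lower in KO) did not overlap either. Of 14 genes of class II processing and control, 12 were in the table, 3 were tested and 0 passed (0 at an unadjusted p under 0.05). DESeq2 and limma-voom called 0 in both lists. Ciita, the master regulator of class II transcription, named for that role, had 0, 1 and 1 counts in WT, compared with 1, 1 and 0 counts in KO.

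Among complement and lysosomal genes, 4 rose in KO. Of 19 complement genes 11 were tested, 2 rose and 0 fell, beside 2.98% of all tested genes called as higher. Clu, which encodes clusterin, an inhibitor of the terminal complement complex, had 40.1, 33.4 and 39.0 CPM in WT, compared with 131, 102 and 104 CPM in KO (edgeR log2 fold change 1.58 with an SE of 0.17, adjusted p = 3.12e-05). Cd59a, a membrane inhibitor of the same complex, rose from 48.1 ± 3.21 to 79.9 ± 10.6 CPM (edgeR log2 fold change 0.73 with an SE of 0.16, adjusted p = 0.014). Leaving out any 1 WT library, replicate 1, 2 or 3, ended that call (edgeR adjusted p = 0.073, 0.0554 and 0.0571). Complement C3 passed as lower without WT replicate 3 (edgeR adjusted p = 0.0395), in a fit that called 2.50% of all genes tested as lower. The C1q members, which start the same cascade, did not pass.

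Of 21 lysosomal proteases and enzymes all were tested, 2 rose and 0 fell, beside 2.98% of all tested genes called as higher and 3.28% as lower. Lgmn (legumain), a lysosomal protease, had 31.4, 23.2 and 21.2 CPM in WT, compared with 152, 111 and 109 CPM in KO. The genotypes did not overlap, and the log2 fold change was 2.29 with an SE of 0.20 (edgeR adjusted p = 6.52e-06). Ctsl, another protease, had 123, 125 and 144 CPM in WT, compared with 350, 219 and 258 CPM in KO (edgeR log2 fold change 1.08 with an SE of 0.16, adjusted p = 0.000943). The macrophage-enriched protease Ctss did not pass, as given above. Clu, Lgmn and Ctsl were called in all 16 fits run, the alternatives included.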

How the data were processed

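Nanopore cDNA libraries of mouse quadriceps were analysed, 3 WT and 3 KO, numbered 1 to 3 in accession order. The authors deposited raw read counts per Ensembl gene and CPM for the same genes, per the file headers; the deposited CPM were not tested. The submitters' processing notes name minimap2, DESeq2 1.6.3 and GRCm38, and no counter, annotation release or strand setting. The test on these counts used edgeR 4.0.16 under R 4.3.3 (filterByExpr, minimum count 10 and minimum total 15; TMM; robust quasi-likelihood test; Benjamini-Hochberg adjustment over 6680 genes), after a check on simulated data. DESeq2 1.42.0, limma 3.58.1, other scalings and filters and the omission of each library were alternatives. Symbols were matched by identifier (22022 of 22036), positions are from GENCODE M21, and promoters from RefSeq. A total of 3 counts served as the floor for a gene at 0; intervals and floors cover counting error only, and PCR copies are not independent molecules. No 2 libraries held identical values.

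All members were named by role group, each tested member by its level and the others by counts; in the other gene lists up to 4 genes past the threshold, smallest p first, were named. Canx, Pf4, Ciita, the genes named for a call in the fit without WT replicate 3 (C3, Ccl6, Ifi27l2a, Dcn, Hbb-bs and Hbb-bt), the single neutrophil markers and the bone and joint list fall outside that rule. The members and lists were chosen with earlier results of these data known. Listed genes absent from the count table, such as Ifi30 and Ighm, were not analysed here.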

Additional observations from a re-analysis of the deposited data

How the results depend on the processing

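With library totals in place of TMM, 653 genes were higher in KO, since that scaling sets the middle of all fold changes at 0.25 (log2), and with no filter on low counts 344 were higher and 362 lower. Over the fits that each left out 1 library, 83 to 179 genes were higher and 154 to 187 lower. Members called as lower numbered 5 with no filter and 0 to 4 when 1 library was left out, with the 4 found without WT replicate 3, and members called as higher numbered 0 in every fit. The sign turned with library totals for Csf1r (0.044), Mrc1 (0.033), Cd14 (0.20) and B2m (0.081). With no filter and without WT replicate 1, an alternative chosen after seeing the data, it turned for Csf1r (0.011), Mrc1 (0.19), C1qa (0.10), Cd14 (0.24), Tyrobp (0.037) and Ctss (0.25). Leaving out 1 library gave ranges that cross 0 for Csf1r (-0.54 to 0.020), Mrc1 (-0.55 to 0.20), C1qa (-0.92 to 0.10), Cd14 (-0.19 to 0.25), Tyrobp (-1.0 to 0.047), Ctss (-0.85 to 0.26), Lgals3 (-0.11 to 0.72), H2-D1 (-0.015 to 0.086) and B2m (-0.27 to 0.0051). The cause was not tested. Of 300 recomputed member fold changes, 272 kept their direction and side of the threshold, 7 passed it and 21 turned. The 12 members under the filter have 1 to 236 counts in all, which limits what can be seen of them. No paired analysis was possible because the title numbers of the groups share 1 number only.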

Other observations

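Genes with at least 20 counts in 1 library and over 5-fold above each of the others numbered 13 in WT replicate 1, 2 in KO replicate 1, 1 in KO replicate 2 and 0 in the other 3 libraries. The 13 include Cxcl13, a B cell chemokine, and Ankrd1 and Atf3, both genes of muscle stress, besides the neutrophil, bone and joint genes. The 2 of KO replicate 1 were Opn4 and Necab2, and the 1 of KO replicate 2 was Myl3, a slow myosin light chain. All were named after their values were seen.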
